A study of Mus musculus with 4 samples.

Results

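The chemokine ligands were examined in C3H10T1/2 cells, a mouse mesenchymal stem cell (MSC) line of embryonic origin. Members were all genes of the count table whose symbol is Ccl, Cxcl, Cx3cl or Xcl followed directly by a number, with a letter after it allowed, and no expression filter was used to choose them. This gave 45 gene rows of 54532, with 39 different symbols. Of these rows, 7 lie on scaffolds outside the assembled chromosomes and belong to the Ccl19, Ccl21 and Ccl27 genes. Poly(A) RNA had been sequenced in 4 groups of 1 library each. Transfection lasted 48 h. It used a control siRNA for the groups control and OB, and siRNA of DNMT1, the maintenance DNA methyltransferase, in siDNMT1 and siDNMT1_OB. The groups OB and siDNMT1_OB were then induced for osteoblast (OB) differentiation for 3 days in medium with L-ascorbic acid at 50 μM, β-glycerophosphate at 10 mM, dexamethasone (a glucocorticoid) at 0.001 μM and penicillin-streptomycin. No uninduced group is labelled as cultured for those 3 days, so induction and time in culture cannot be told apart in the OB induction comparisons. The labels do not state which of the siRNAs listed by the study was used. With 1 library per group, no difference below has a replicate check, and intervals cover counting error only.

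Chemokines are small secreted proteins that bind G protein-coupled receptors on other cells and set the direction of their migration. They are named by the spacing of their first cysteines, as CC, CXC, CX3C and C chemokines. Inflammatory chemokines are switched on by NF-κB or interferon and recruit leukocytes, while homeostatic chemokines are made constantly. In bone marrow the best known is CXCL12, which stromal cells of the osteoblast and reticular lineage make and which holds hematopoietic stem cells in their niche through CXCR4. Glucocorticoids are known to lower many inflammatory chemokines.

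Library totals lay between 22296046 (OB) and 27367792 counts (control). Dnmt1 had 7195 counts (control), 3375 (siDNMT1), 1931 (OB) and 2492 (library labelled siDNMT1_OB). On the log2 scale siDNMT1 differed from control by −1.01 (95% interval −1.07 to −0.95), but the library labelled siDNMT1_OB differed from OB by 0.13 (0.04 to 0.21). Dnmt1 mRNA thus goes against that label, and every direction drawn from this library is subject to it. For DNMT1 protein, the paper reports knockdown by western blotting in this cell line after a longer osteogenic culture. Of 10 mesenchymal marker genes, 9 had a mean of at least 1 CPM (counts scaled to library depth), with a summed level of 20660 to 24059 CPM. The 12 leukocyte markers summed to 10.7 to 13.3 CPM. Most of that was Cd14 and Cd68, while the defining leukocyte gene Ptprc had 0 to 2 counts and the macrophage gene Adgre1 had 0 in all 4 libraries.

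Promoter sequences are shown for a chemokine made at a high level (Cxcl12), one at an intermediate level (Cx3cl1), one at a low level that was lower in each of the other libraries than in control (Cxcl1), a close neighbour of Cxcl1 that had no count (Cxcl2), and an interferon-inducible member at the detection limit (Cxcl10). Each window holds 300 bases, from 250 before to 50 after the RefSeq start (GRCm38.p6), 5′ to 3′ on the strand of the gene. Capitals mark matches on either strand to a κB-like motif (GGGA, any 4 bases, CC), an ISRE-like motif after the interferon-stimulated response element (GAAA, any 2 bases, GAAA), a GRE-like motif after the glucocorticoid response element (ACA, any 3 bases, TGT, any base, C) and TATAAA.
Cxcl12, chr6:117168285-117168584, plus strand: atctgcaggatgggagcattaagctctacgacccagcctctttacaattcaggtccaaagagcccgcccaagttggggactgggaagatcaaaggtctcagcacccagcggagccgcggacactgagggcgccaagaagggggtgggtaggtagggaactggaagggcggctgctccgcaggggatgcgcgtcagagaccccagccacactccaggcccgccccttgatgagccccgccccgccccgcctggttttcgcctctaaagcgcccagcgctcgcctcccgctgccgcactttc
Cx3cl1, chr8:94771930-94772229, plus strand: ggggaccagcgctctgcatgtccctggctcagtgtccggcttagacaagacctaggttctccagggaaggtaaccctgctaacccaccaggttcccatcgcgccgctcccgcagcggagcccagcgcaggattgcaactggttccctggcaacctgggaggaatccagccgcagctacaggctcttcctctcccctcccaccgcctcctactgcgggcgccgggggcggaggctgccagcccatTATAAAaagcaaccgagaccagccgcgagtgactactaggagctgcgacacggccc
Cxcl1, chr5:90890995-90891294, plus strand: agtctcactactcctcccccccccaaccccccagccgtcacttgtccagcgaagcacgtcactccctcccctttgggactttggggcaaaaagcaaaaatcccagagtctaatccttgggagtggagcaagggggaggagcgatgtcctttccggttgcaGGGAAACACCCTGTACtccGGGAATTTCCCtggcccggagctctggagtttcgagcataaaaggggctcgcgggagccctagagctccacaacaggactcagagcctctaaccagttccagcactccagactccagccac
Cxcl2, chr5:90903649-90903948, plus strand: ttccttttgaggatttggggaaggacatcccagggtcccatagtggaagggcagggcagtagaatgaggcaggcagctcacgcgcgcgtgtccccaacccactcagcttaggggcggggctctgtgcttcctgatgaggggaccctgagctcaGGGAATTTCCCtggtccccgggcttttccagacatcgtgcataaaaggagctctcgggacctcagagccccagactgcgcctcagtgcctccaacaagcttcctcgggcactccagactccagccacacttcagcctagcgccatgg
Cxcl10, chr5:92348840-92349139, minus strand: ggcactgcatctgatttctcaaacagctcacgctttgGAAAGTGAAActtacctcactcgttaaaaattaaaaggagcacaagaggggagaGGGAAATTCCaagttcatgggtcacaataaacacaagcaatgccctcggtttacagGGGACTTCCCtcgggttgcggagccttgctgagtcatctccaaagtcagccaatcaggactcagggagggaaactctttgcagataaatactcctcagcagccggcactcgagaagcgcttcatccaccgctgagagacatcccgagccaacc

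In these windows Cxcl12 held no match to any of the 4 motifs, and 20 CG dinucleotides, a number reached by 26.5% of all 32851 RefSeq windows. Cx3cl1 held 19, against a median of 7 over all windows. Cxcl1 held 10 CG dinucleotides, 3 κB-like matches (of which GGGAATTTCC and GGGAAATTCC overlap on opposite strands, shifted by 1 base) and a GRE-like match, ACACCCTGTAC, that overlaps the κB-like match GGGAAACACC. Cxcl2 held the same GGGAATTTCC. Windows could be matched by symbol and position for 26 of the 39 symbols, and they numbered 32 because some genes have several starts. A κB-like match stood in 15 of these 32 windows and in 20.7% of all windows, an ISRE-like match in 3 (3.44% of all), a GRE-like match in 1 (3.11%) and TATAAA in 10 (13.6%). A match is a description of letters and not evidence of a bound factor. Of the 8 members described individually below, Cxcl12, Cx3cl1, Cxcl1, Ccl9 and Ccl25 had a window.

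Most of the family was at or near the limit of detection. Of the 45 rows, 20 (44.4%) had no count in any library, 15 had at most 8 counts in any library, 2 reached 10 counts with a mean CPM under 1, and 8 averaged 1 CPM or more. Over the whole table, 13233 of 54532 genes (24.3%) reached this mean CPM and 27152 (49.8%) had no count. A gene without counts can still be present at up to 3 counts, which equals 0.111 to 0.133 CPM. The 8 members were Cxcl12, Cx3cl1, Ccl2, Ccl25, Ccl9, Cxcl5, Cxcl1 and Ccl7.

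Cxcl12 was the most abundant chemokine ligand in each library. Cxcl12 (ENSMUSG00000061353, chromosome 6, 117168535 to 117181367) had 57262 counts (control), 59888 (siDNMT1), 45265 (OB) and 78329 (library labelled siDNMT1_OB). It held 95.3%, 96.9%, 95.4% and 97.6% of all chemokine ligand counts in these libraries, shares that its long transcript raises. Per length, in TPM (length- and depth-scaled counts), its level was 740.7, 859.9, 756.7 and 1099 in the same order, which is 84.8%, 91.6%, 88.0% and 92.4% of the TPM of all members, and it ranked 199th, 160th, 167th and 111th of all genes.

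The CPM of Cxcl12 was 2111 (95% interval 2094 to 2129; control), 2338 (2319 to 2356; siDNMT1), 2002 (1983 to 2020; OB) and 2927 (2907 to 2948; library labelled siDNMT1_OB). The highest level was thus in the library labelled siDNMT1_OB, and OB held the lowest. The log2 fold change was 0.15 in siDNMT1 against control and 0.55 (0.53 to 0.57) in the library labelled siDNMT1_OB against OB, a 1.46-fold difference that stayed under the 2-fold threshold used here. Among all 13233 tested genes that value stood at percentile 92.6. OB induction gave −0.08 with control siRNA, which was −0.04 with total counts, −0.03 with upper quartile scaling and −0.12 with TMM over all genes. With DNMT1 siRNA (the library labelled siDNMT1_OB against siDNMT1) it gave 0.32. Depth gives Cxcl12 narrow counting intervals, so scaling and the unmeasured spread between cultures limit these small differences.

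In the untreated and the OB pair alike the sum over all 45 rows and the sum without Cxcl12 differed in direction, whereas both sums were lower in OB than in control. All rows summed to 2216 CPM (control), 2412 (siDNMT1), 2099 (OB) and 3000.3 (library labelled siDNMT1_OB). The other 44 rows summed to 105.2 CPM (101.4 to 109.1; control), 74.4 (71.1 to 77.8; siDNMT1), 97.0 (93.0 to 101.1; OB) and 73.2 (70.0 to 76.5; library labelled siDNMT1_OB). With Ccl2 also left out, the other 43 rows summed to 85 CPM (81.5 to 88.5), 69.1 (65.9 to 72.4), 91.5 (87.6 to 95.6) and 64.6 (61.6 to 67.7) in the same order, so OB was no longer below control. Cx3cl1 alone held 48.1% (control), 56.9% (siDNMT1), 54.8% (OB) and 49.5% (library labelled siDNMT1_OB) of the counts outside Cxcl12, so it weighs most in these sums. siDNMT1 was above control in Cxcl12 and below it in the summed remainder, with or without Ccl2. The library labelled siDNMT1_OB stood likewise to OB, although its Dnmt1 was not lower.

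**Figure D1:**
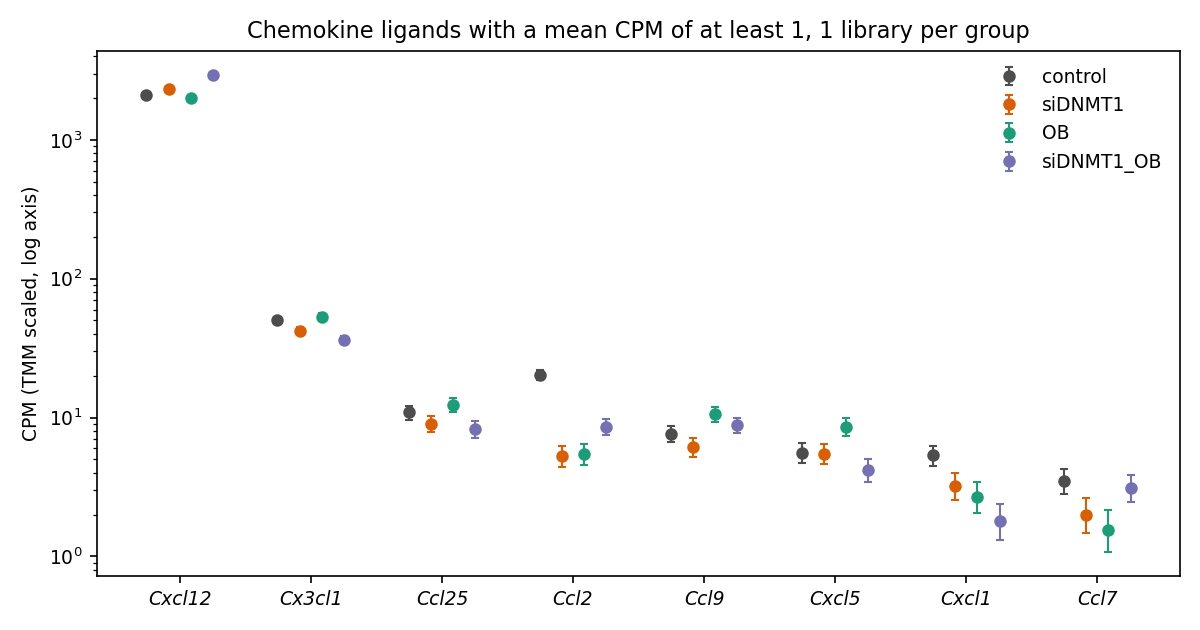
CPM (log axis) of the 8 chemokine ligands with a mean CPM of at least 1, in control, siDNMT1, OB and siDNMT1_OB, 1 library each; points are the values and bars the exact Poisson 95% intervals. Cxcl12 lies at 2002 or above in each library, Cx3cl1 between 36.2 and 53.1, and the other 6 at 20.2 or below.

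Ccl2 and Ccl7 are monocyte chemoattractants, ligands of CCR2 that draw monocytes out of the blood. Ccl2 had the widest range among the 8 as a fold between libraries. Ccl2 (ENSMUSG00000035385, chromosome 11, 82035571 to 82037453) had 548 counts (control), 135 (siDNMT1), 123 (OB) and 229 (library labelled siDNMT1_OB). These equal 20.2 CPM (18.5 to 22), 5.27 (4.42 to 6.24), 5.44 (4.52 to 6.49) and 8.56 (7.48 to 9.74). Control stood apart from the other libraries, and siDNMT1 and OB overlapped within counting error. Per length, Ccl2 was second to Cxcl12 in control, at 50.9 TPM (46.8 to 55.4) against 36.9 (35.0 to 38.9) for Cx3cl1, whereas in siDNMT1 it had 13.9 TPM and lay below Cx3cl1 at 32.4.

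Ccl7 (ENSMUSG00000035373, chromosome 11, 82045712 to 82047525) lies directly downstream of Ccl2, its start 10.1 kb from that of Ccl2 on the same strand. It had 94 counts (control), 51 (siDNMT1), 35 (OB) and 83 (library labelled siDNMT1_OB), or 3.47, 1.99, 1.55 and 3.10 CPM. Control was again highest, with the library labelled siDNMT1_OB overlapping it within counting error and siDNMT1 and OB lower. The other members of this group on the same stretch of chromosome 11 were not measurable: Ccl8 had 1 count in control and 0 elsewhere, and Ccl12 had 0 in all 4 libraries.

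Ccl2 was the only one of the 8 members past 2-fold in siDNMT1 against control, where its log2 fold change was −1.92 (−2.22 to −1.66), a 3.83-fold lower level. In this comparison 3.34% of all tested genes were past 2-fold in either direction and 1.37% lower. Ccl2 stood at percentile 0.136 of the tested genes. Ccl7 had −0.78 (−1.32 to −0.29). After OB induction the values had the opposite sign. In the library labelled siDNMT1_OB against OB, Ccl2 had 0.65 (0.33 to 0.98) and Ccl7 0.97 (0.42 to 1.62), the latter just under the threshold. The difference in the OB pair minus that in the untreated pair was 2.57 (2.15 to 2.99) for Ccl2 and 1.74 (0.99 to 2.5) for Ccl7 on the log2 scale, at percentiles 99.9 and 99.6 of the tested genes. In the other direction Cxcl5 had −1.01 (−1.48 to −0.53), at percentile 2.91, and the other 5 members lay between −0.31 and 0.40. Of all tested genes, 3.27% had such a difference of at least 1 upward and 2.95% downward. These differences were not tested across conditions, and they turn on a library whose Dnmt1 level does not bear out its label. They also rest on the control library, and for Ccl2 the untreated −1.92 is the larger part. Read in the other direction, the OB pair would have Ccl2 and Ccl7 lower, as in the untreated pair. For Ccl2 the size would still be smaller than untreated, and whether the label is wrong was not tested. The differences and their percentiles therefore hold only for the labels as given.

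With control siRNA, OB induction gave Ccl2 a log2 fold change of −1.88 (−2.19 to −1.61) and Ccl7 −1.12 (−1.77 to −0.59). These were the 2 members past 2-fold there, both lower, against 17.7% of all tested genes in either direction and 7.10% lower. This comparison and the untreated one share the control library, whose 548 counts of Ccl2 enter both and also the 2.57 above. With DNMT1 siRNA, Ccl2 had 0.69 (0.39 to 1.02) and Ccl7 0.62 (0.12 to 1.17) on OB induction, so siDNMT1 had the lower level of both.

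**Figure D2:**
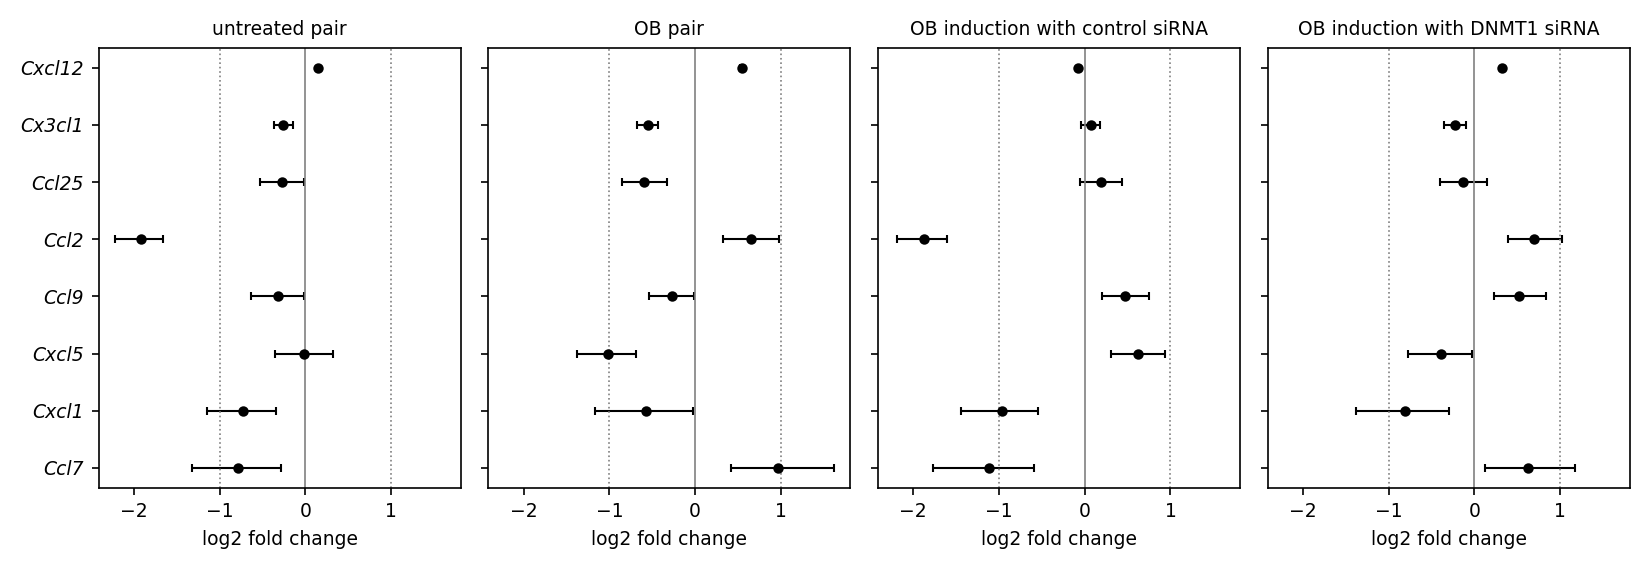
Log2 fold change of the 8 members in siDNMT1 against control (untreated pair), siDNMT1_OB against OB (OB pair) and OB induction with each siRNA; points are the values, bars the exact 95% counting intervals of the ratio, and dotted lines mark 2-fold. Ccl2 lies at −1.92, 0.65, −1.88 and 0.69 from left to right, and Cxcl1 lies below 0 in each panel.

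The CXC chemokines with an ELR motif attract neutrophils through CXCR2, and Cxcl1 and Cxcl5 were the measurable ones. Cxcl1 (ENSMUSG00000029380, chromosome 5, 90891241 to 90893115) had 145 counts (control), 82 (siDNMT1), 61 (OB) and 48 (library labelled siDNMT1_OB), or 5.35, 3.20, 2.70 and 1.79 CPM. Control was highest and the library labelled siDNMT1_OB lowest. The log2 fold changes were −0.73 (−1.15 to −0.34) untreated, −0.57 (−1.17 to −0.02) induced, −0.97 (−1.44 to −0.55) for OB induction with control siRNA and −0.81 (−1.38 to −0.30) with DNMT1 siRNA. Cxcl1 was thus lower in each comparison by more than counting error and past 2-fold in none of them.

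Cxcl5 (ENSMUSG00000029371, chromosome 5, 90759360 to 90761624) had 151 counts (control), 141 (siDNMT1), 194 (OB) and 112 (library labelled siDNMT1_OB), or 5.57, 5.50, 8.58 and 4.19 CPM. OB was highest, and the untreated libraries overlapped, with a log2 fold change of −0.02 (−0.36 to 0.32). In the OB pair it had −1.02 (−1.38 to −0.69), at the 2-fold threshold with an interval on both sides of it, and was the only member past it there. In that comparison 3.73% of all tested genes were past 2-fold and 1.37% lower. OB induction gave 0.62 (0.31 to 0.94) with control siRNA and −0.39 (−0.77 to −0.03) with DNMT1 siRNA. Cxcl2 and Cxcl3, further CXCR2 ligands of this gene cluster, had 0 counts in all 4 libraries, and Cxcl15 had 3 to 8. Ppbp (CXCL7), a CXCR2 ligand whose symbol falls outside the rule, had 4 counts in control and 0 elsewhere.

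Cx3cl1 encodes fractalkine, which is anchored in the membrane as an adhesion molecule and is released as a chemoattractant by the proteases ADAM10 and ADAM17. The gene (ENSMUSG00000031778, chromosome 8, 94772009 to 94782427) had 1372 counts (control), 1085 (siDNMT1), 1201 (OB) and 969 (library labelled siDNMT1_OB). The levels were 50.6 CPM (47.9 to 53.3), 42.3 (39.9 to 44.9), 53.1 (50.1 to 56.2) and 36.2 (34.0 to 38.6), so siDNMT1 lay below control and the library labelled siDNMT1_OB below OB. The log2 fold change was −0.26 (−0.37 to −0.14) untreated and −0.55 (−0.68 to −0.43) induced. OB induction with control siRNA gave 0.07 (−0.04 to 0.18), which counting error does not separate from 0, and with DNMT1 siRNA it gave −0.23 (−0.35 to −0.10). The adjoining chemokine genes were low. Ccl17, a ligand of CCR4, had 10, 3, 12 and 12 counts in the order control, siDNMT1, OB and siDNMT1_OB, and Ccl22, the other CCR4 ligand, had at most 2. Cxcl16, the other membrane-anchored chemokine, had 13, 14, 13 and 18 counts.

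Ccl9, a ligand of CCR1 on myeloid cells and osteoclasts, was the measurable gene of the second Ccl cluster on chromosome 11 (ENSMUSG00000019122, 83572919 to 83578636). It had 207 counts (control), 156 (siDNMT1), 240 (OB) and 235 (library labelled siDNMT1_OB), or 7.63, 6.09, 10.6 and 8.78 CPM. Both induced libraries were higher than their untreated partner, with log2 fold changes of 0.47 (0.20 to 0.75) with control siRNA and 0.52 (0.23 to 0.83) with DNMT1 siRNA. The untreated pair differed by −0.32 (−0.63 to −0.02) and the OB pair by −0.27 (−0.54 to −0.01). Its neighbour Ccl6 had 1 to 5 counts, Ccl5 0 to 2, and Ccl3 and Ccl4 had 0 in all 4 libraries.

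Ccl25, a CCR9 ligand known from thymus and gut, had 295 counts (control), 230 (siDNMT1), 280 (OB) and 220 (library labelled siDNMT1_OB), or 10.9, 8.98, 12.4 and 8.22 CPM. Its log2 fold change was −0.27 (−0.53 to −0.02) untreated and −0.59 (−0.85 to −0.33) in the OB pair, with siDNMT1 and the library labelled siDNMT1_OB the lower of each pair. OB induction gave 0.19 (−0.05 to 0.43) with control siRNA and −0.13 (−0.40 to 0.15) with DNMT1 siRNA. Exons of Ccl25 (ENSMUSG00000023235, chromosome 8, 4325210 to 4360020) overlap those of Elavl1 on the opposite strand, which had 1229 to 2253 counts. The use of strand in counting was not stated, so the Ccl25 values can include reads of Elavl1 and are uncertain.

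**Figure D3:**
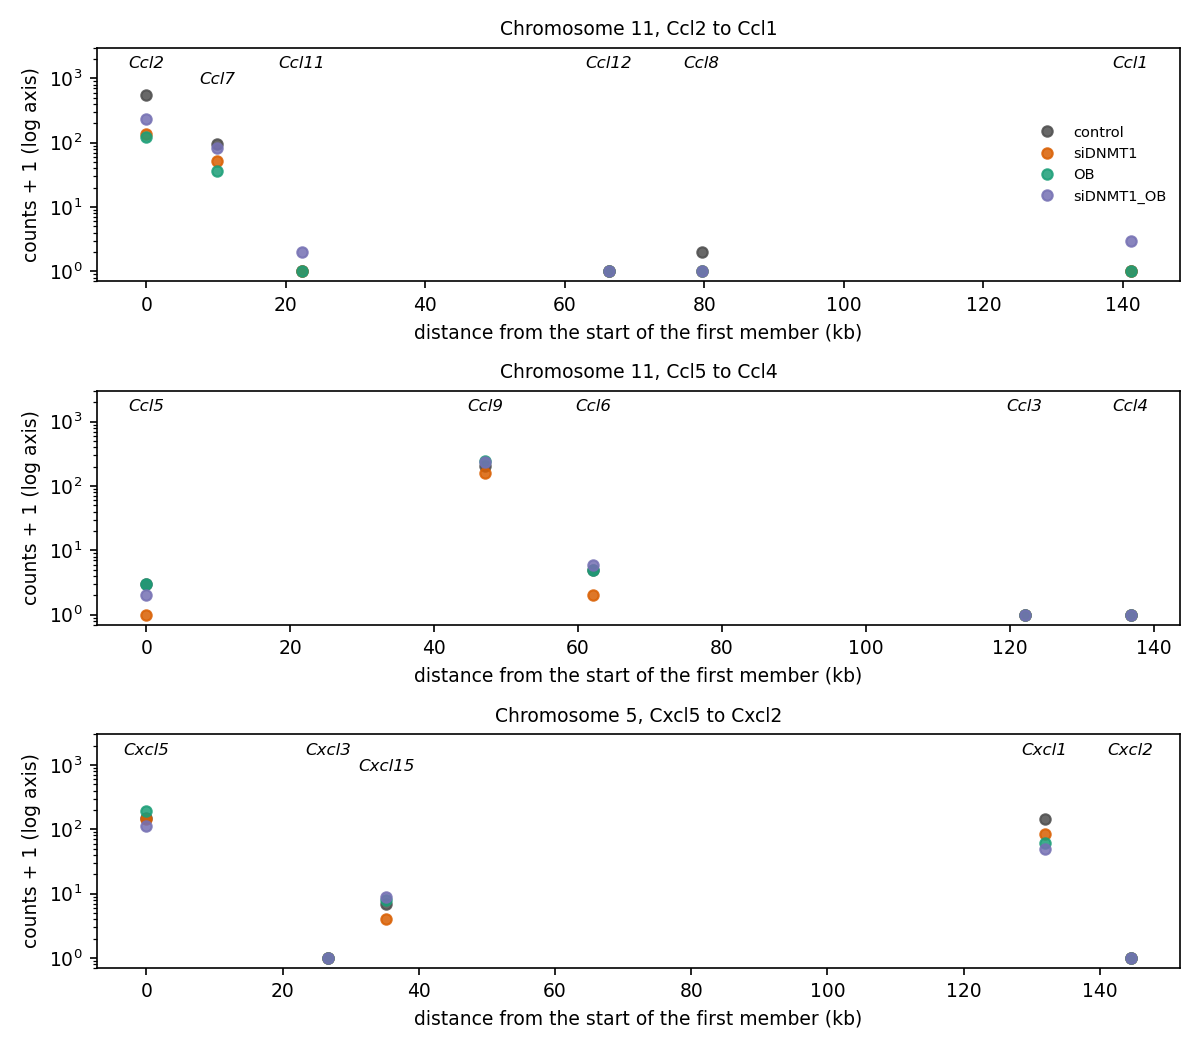
Counts + 1 (log axis) of each chemokine gene in the 3 clusters with at least 5 members, by distance in kb from the start of the leftmost member, in control, siDNMT1, OB and siDNMT1_OB. Ccl2 and Ccl7, Ccl9, and Cxcl5 and Cxcl1 lie above 30 counts, and the other genes at 8 counts or fewer.

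In the gene clusters, members averaging 1 CPM or more lay beside members with few or no counts. Genes less than 200 kb apart were grouped, and 3 clusters held at least 5 members. On chromosome 11, 2 of 6 genes from Ccl2 to Ccl1 and 1 of 5 from Ccl5 to Ccl4 had a mean CPM of at least 1, as did 2 of 5 from Cxcl5 to Cxcl2 on chromosome 5. Cxcl1 and Cxcl2 start 131.9 and 144.5 kb from the Cxcl5 start, and they had 48 to 145 counts and none.

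The interferon-inducible ligands of CXCR3, which recruit T cells, stayed at the detection limit. Cxcl10 had 0 counts (control), 1 (siDNMT1), 2 (OB) and 1 (library labelled siDNMT1_OB), Cxcl9 had 2 in OB alone, and Cxcl11 had 0 in all 4 libraries. The Cxcl10 window shown above holds an ISRE-like match and 3 κB-like matches, of which GGGACTTCCC and GGGAAGTCCC are the same bases read on opposite strands. Of the homeostatic members, Cxcl13 (B cell follicles) and the CCR7 ligands Ccl19 and Ccl21 had 0 counts, and Cxcl14 had 2 in OB alone. The Ccl27a row on chromosome 4 had 2, 2, 8 and 6 counts, another on a scaffold had 0, 0, 1 and 1, and Ccl28 had 1 or 2. Ccl27a, Ccl27b, Ccl19 and Ccl21 have near-identical copies between which reads can be split or lost, so their counts are uncertain. Cxcl17 had 2, 0, 3 and 3 counts. The eotaxins Ccl24 and Ccl26 and Xcl1, the single C chemokine, had none, and Ccl11, Ccl1 and Ccl20 had 1 or 2 counts in the library labelled siDNMT1_OB alone. At this depth no direction can be read from any of these.

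Set against all genes, the 8 members with a mean CPM of at least 1 showed these median log2 fold changes: −0.30 for the untreated pair (median of all tested genes 0.00), −0.41 for the OB pair (0.01), 0.00 for OB induction with control siRNA (0.01) and 0.10 with DNMT1 siRNA (0.00). Negative values were found for 7 of the 8 in the untreated pair and 5 of 8 in the OB pair, while 49.7% and 52.2% of all tested genes had positive ones. No member was past 2-fold for OB induction with DNMT1 siRNA, where 9.54% of all tested genes were. None of these 8 was past 2-fold upward in any of the 4 comparisons, against 1.97%, 2.36%, 10.6% and 6.83% of all tested genes in the same order. With 8 members, both results are near the background. In bulk RNA, fewer cells making a chemokine and less RNA per cell cannot be told apart. Without any expression filter, 4.76%, 6%, 11.3% and 7.09% of all 54532 genes were past 2-fold in the same order, and with a mean of 5 CPM or more 14.4% were for OB induction with control siRNA. Lower levels past 2-fold were found for 2.71% of tested genes on OB induction with DNMT1 siRNA.

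**Figure D4:**
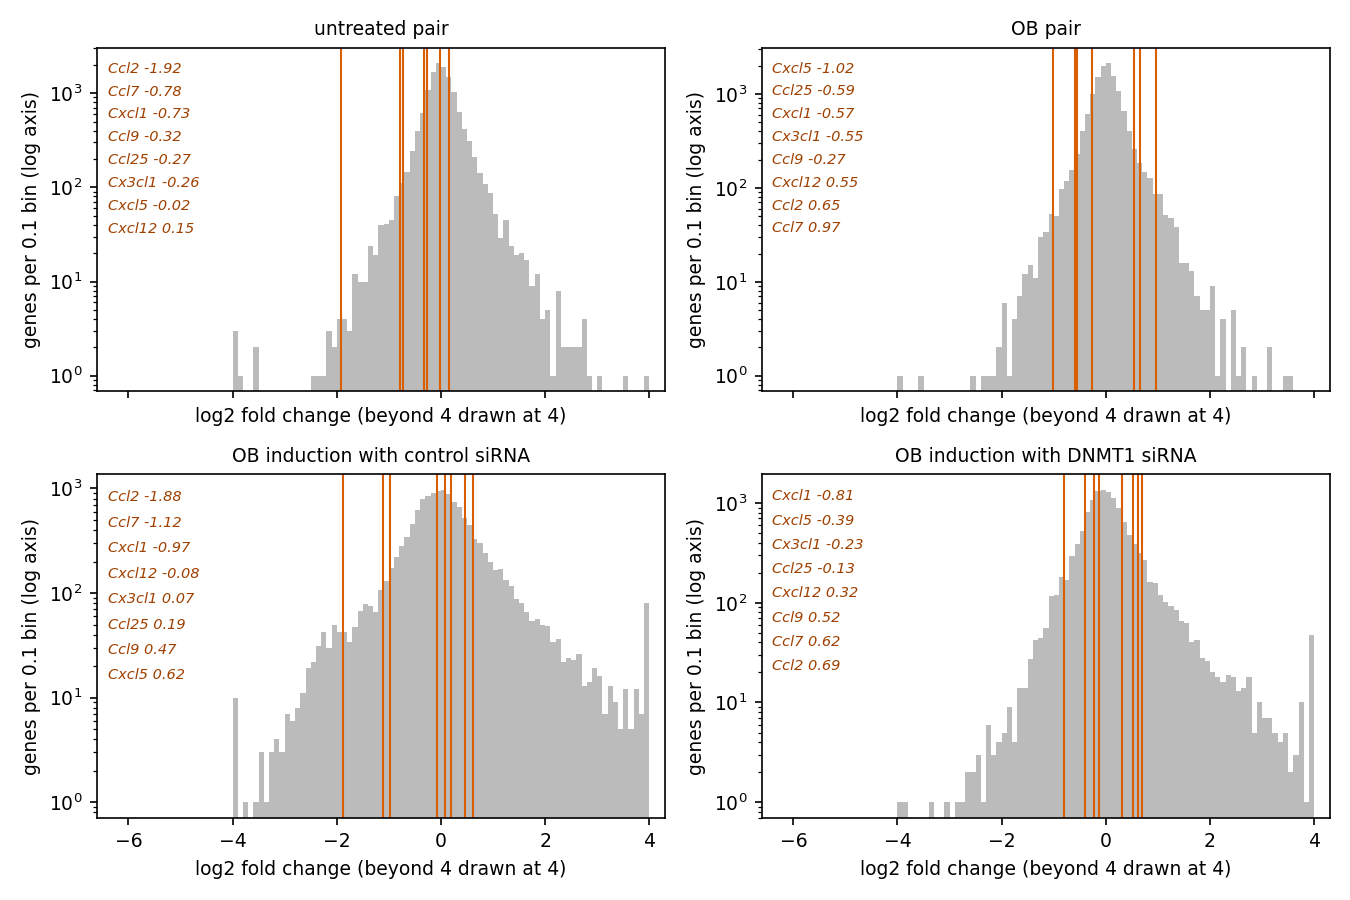
Distribution of log2 fold changes of the 13233 tested genes (grey, genes per bin, log axis) in the 4 comparisons, with the 8 chemokine ligands as vertical lines and their values listed at the left. Ccl2 lies in the lower tail at −1.92 in the untreated pair and at −1.88 for OB induction with control siRNA, and most other members lie within the bulk.

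The receptors were then examined from a list of 18 signalling chemokine receptors. A single receptor, Ccr10, which binds CCL27 and CCL28, had a mean CPM of at least 1, with 50, 41, 46 and 26 counts in the order control, siDNMT1, OB and siDNMT1_OB, and 8 of the 18 had no count. Its log2 fold change in the OB pair was −1.01 (−1.82 to −0.34), at the threshold on 26 against 46 counts, with an interval on both sides of it. Past 2-fold in that comparison were 3.73% of all tested genes. Cxcr4, the signalling receptor of CXCL12, had 1 to 5 counts. Ackr3, the atypical receptor that takes up CXCL12 without G protein signalling, was the 1 measurable gene of 5 on the atypical list, with 1528, 1098, 1016 and 903 counts. Control was highest for Ackr3, and its log2 fold changes were −0.39 (−0.51 to −0.28) untreated and −0.41 (−0.54 to −0.28) induced, of opposite sign to those of Cxcl12. None of the 4 comparisons put Ackr3 past 2-fold.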

How the data were processed

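RNA was sequenced in 4 libraries, 1 per group, and groups were taken from the treatment labels. The authors deposited raw counts per gene, in whole numbers without normalization, made with Trimmomatic, HISAT2 and featureCounts (build mm10 per the submitters' processing notes). Versions, strand use and multi-mapping are not given in the sources used here. All 45 members had the same position in GENCODE M21 (GRCm38). The deposited gene length served for TPM.

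From the deposited counts, edgeR 4.0.16 (R 4.3.3) gave TMM factors (0.991 to 1.01) on the 13233 genes averaging 1 CPM or more. Log2 fold changes used a prior count of 2, and a gene was past 2-fold at a size of 1 or more. Ratios have exact conditional binomial 95% intervals, levels exact Poisson ones and differences of effects a normal approximation on log counts. Without molecular identifiers, these intervals and the floor of 3 counts cover counting error only. The calls were tested on simulated data with planted changes and counting noise alone, which cannot show the spread between cultures. Members and lists were chosen with earlier results of these data known. Members with a mean CPM of at least 1 are described individually, those with 10 or more counts by counts, and the rest by group. On other lists, genes past 2-fold are named, up to 3 per comparison. Alternatives were other scalings (DESeq2 1.42.0 size factors among them), filters, prior counts and an additive edgeR fit. RefSeq proteins were not analysed here.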

Additional observations from a re-analysis of the deposited data

Results flagged for a closer look

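Ccl2 and Ccl7 were lower in siDNMT1 than in control while the library labelled siDNMT1_OB exceeded OB in both, each time outside counting error. Dnmt1 itself was not lower in the latter library (log2 fold change 0.13), which does not bear out its label. The induced difference minus the untreated one was 2.57 on the log2 scale for Ccl2 (−1.92 untreated, 0.65 induced) and 1.74 for Ccl7 (−0.78 and 0.97). Both values hold only for the labels as given, since the induced pair read in the other direction would have both genes lower, as untreated. For Ccl2 the size would still be smaller than untreated, and whether the label is wrong was not tested. With 1 library per group the difference was not tested. Mif, a cytokine that shares receptors with chemokines, was also lower untreated, at −0.89 (−0.94 to −0.85), and higher induced, at 0.41 (0.33 to 0.49). The chemokine-like gene Cklf had 0.03 (−0.18 to 0.23) untreated, which counting error does not separate from 0, and 0.45 (0.21 to 0.70) induced.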

How the results depend on the processing

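The log2 fold changes of the 8 members averaging 1 CPM or more were recomputed under 6 alternative scalings and prior counts, and none of the values past 2-fold changed sign. Of 192 such values, 186 stayed within their counting interval and 6 moved, all of them Cxcl12. The number of members past 2-fold stayed the same under the other scalings and both prior counts. With TMM factors over all genes, an alternative added after seeing the data, Cxcl1 joined Ccl2 and Ccl7 for OB induction with control siRNA. Without a filter the numbers were 2 (untreated pair), 4 (OB pair), 7 and 3 (OB induction with control and DNMT1 siRNA) of 45 rows, of which 0, 0, 5 and 3 were higher, against 4.76%, 6%, 11.3% and 7.09% of all genes. The additions had at most 12 counts. A mean CPM of at least 5 left 1 for OB induction with control siRNA, because Ccl7 was no longer tested. The additive edgeR quasi-likelihood fit (1 residual degree of freedom, counting a difference between states as noise) gave 0 members for either term at an adjusted p under 0.05, with 3 and 2 at an unadjusted p under 0.05 for the siRNA and OB terms; the lowest adjusted p was 0.512 and 0.0586. Over all 13233 tested genes it called 0 for siRNA and 2786 for OB, with 1148 and 5027 at an unadjusted p under 0.05. The summed CPM was 2197 in control and 2129 in OB with total counts, 2175 and 2131 with upper quartile scaling, and 2243, 2445, 2061 and 2978 in control, siDNMT1, OB and the library labelled siDNMT1_OB with TMM over all genes. Without Cxcl12 the sums were 105.2, 74.4, 97.0 and 73.2. The Cxcl12 value for the OB pair (with the library labelled siDNMT1_OB) minus that for the untreated pair, 0.40, was 0.36 with total counts and with upper quartile scaling. No paired analysis was possible with 1 library per group, beyond the additive fit, which blocks the siRNA term by induction state.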

Other observations

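Genes around the chemokine system gave further values. Of 28 NF-κB components and targets, 20 had a mean CPM of at least 1, and 0 of these were past 2-fold for the untreated or the OB pair, with medians of −0.05 and 0.05. Over all tested genes 3.34% and 3.73% were, so 0 of 20 is near the background. OB induction with control siRNA, where 17.7% of all tested genes were past 2-fold, put Ptgs2 (cyclooxygenase 2) at −2.53 (3512 counts in control, 507 in OB), Lif at −1.70 (145 and 36) and Nfkbia, the inhibitor of NF-κB, at 1.14 (724 and 1336). With DNMT1 siRNA (9.54% of all tested genes), Ptgs2 had −1.84 and Nfkbia 1.15. The NF-κB targets Il6 (5 to 21 counts) and Icam1 (1 to 5) were low in each library, while Vcam1 had 1768 to 2193 counts. Mif and Cklf were the measurable ones of 4 chemokine or chemokine-like genes under other symbols. Mif had 11139 counts (control), 5664 (siDNMT1), 2073 (OB) and 3250 (library labelled siDNMT1_OB), a log2 fold change of −2.16 for OB induction with control siRNA.

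Of 14 genes that process or present chemokines, 12 were tested. None was past 2-fold in the untreated or the OB pair, which is near the background of 3.34% and 3.73%. With control siRNA, OB induction (background 17.7%) put the metalloproteases Mmp2 at 1.21 and Mmp14 at 1.16 and the heparan sulfate proteoglycan Sdc3 at −1.30. Adam10 (3652 to 4287 counts) and Adam17 (2001 to 2345), the proteases that release fractalkine, were measured in each library. Of the 9 mesenchymal markers tested, 1, 0, 1 and 2 were past 2-fold in the untreated pair, the OB pair and OB induction with control and DNMT1 siRNA, where 3.34%, 3.73%, 17.7% and 9.54% of all tested genes were. Ly6a had −1.03 in the untreated pair, and OB induction gave Pdgfra 2.47 with control siRNA and 1.56 with DNMT1 siRNA and Thy1 1.22 with the latter. Of 5 endothelial markers Tek alone had a mean CPM of at least 1, with 1.62 untreated and 1.42 induced, and of 5 epithelial markers none did.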
